A study of Homo sapiens with 24 samples.

Results

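The nuclear-encoded genes of the mitochondrial respiratory chain and ATP synthase were followed in HEL cells treated with JAK inhibitors. Members were the protein-coding genes whose symbol begins with NDUFA, NDUFB, NDUFC, NDUFS or NDUFV, with UQCR, with COX and a digit from 4 to 8, or with ATP5, and SDHA to SDHD. The rule took 97 of the 34213 genes counted and used no measured value. HEL cells, an established human erythroleukaemia line with a mutant, constantly active JAK2, were given the solvent DMSO or 500 nM of 1 of 5 JAK inhibitors, namely ruxolitinib, fedratinib, momelotinib, pacritinib or itacitinib. RNA was taken at 4 h and at 48 h, which makes 12 groups of 2 libraries. All libraries come from this 1 line. Separate cultures are not stated for the 2 libraries of a group, so the p-values cover the spread between libraries, which may be technical.

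The respiratory chain sits in the inner mitochondrial membrane. Complex I takes electrons from NADH and complex II takes them from succinate. Complex III passes them from ubiquinol to cytochrome c, and complex IV passes them on to oxygen. Complexes I, III and IV pump protons, and complex V, the ATP synthase, uses the proton gradient to make ATP. The mitochondrial genome encodes a few central subunits of every complex except complex II, and nuclear genes encode the other subunits and the factors that assemble them. In red cell precursors the chain supplies ATP while mitochondria also make haem, and mature red cells lose their mitochondria.

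The members comprised 7 catalytic core subunits of complex I, 31 accessory subunits, 8 assembly factors of the NDUFAF family, 4 genes of complex II, 8 of complex III, 19 of complex IV and 20 of complex V. NDUFA4 and its relative NDUFA4L2 were placed with complex IV, of which NDUFA4 is a subunit despite its name. CYC1, the cytochrome c1 subunit of complex III, is not taken by the rule. A filter on low counts kept 92 members among 16076 genes tested, and COX4I2, COX6A2, COX7B2, COX8C and NDUFC2-KCTD14 were not tested. Of the 97 members, 81 had at least 10 CPM (a read count scaled to the size of its library) in every library and 12 stayed under 5 CPM in every library.

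Total counts ran from 32153866 to 56618281 per library, and the members took 0.985% to 1.12% of them. Of 10 erythroid and megakaryocytic markers of HEL cells, 9 were above 5 CPM. PF4, a megakaryocyte chemokine, was the one that was not. The 3 fibroblast markers summed to at most 1.19 CPM in any library. Of 3 markers each for T cells, B cells, monocytes and epithelial cells, 1 per list had a median above 5 CPM. These were CD2 (20.3 to 31.5 CPM), CD79A (3.26 to 7.84), LYZ (33.5 to 41.7) and KRT18 (3.25 to 8.22). The JAK-STAT and ERK response genes CISH, SOCS2, SOCS3, PIM1 and DUSP6 were all lower than with DMSO at 4 h with ruxolitinib and with pacritinib, 4 of the 5 were lower with momelotinib, and 0 were called with fedratinib or itacitinib. At 48 h all 5 were lower with ruxolitinib, 1 was lower with momelotinib and with itacitinib, 0 were called with fedratinib, and 4 were higher and 1 lower with pacritinib. In bulk RNA, fewer cells of a kind and less RNA per cell cannot be told apart.

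Levels between genes are compared per kilobase of annotated exon, which is approximate because the union of exons includes rare transcripts. By this measure ATP5F1B, the catalytic beta subunit of ATP synthase, had the highest mean over the 24 libraries, 462 CPM per kb. The highest members elsewhere were NDUFS5 among accessory subunits of complex I (284 CPM per kb), UQCRH in complex III (280.1), COX6B1 in complex IV (183) and SDHB in complex II (51.7). The lowest of the complex I core was NDUFS7 at 8.903 CPM per kb. Assembly factors, which build complex I but are not part of it, ranged from 1.29 for NDUFAF5 to 37.8 for NDUFAF8.

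Complex IV has pairs of subunit genes in which 1 copy is known from muscle, lung, testis or hypoxic cells, and in HEL cells the widely used copy was the higher of each pair. COX4I1 averaged 40.7 CPM per kb and COX4I2, the hypoxia and lung form, at most 0.0901 CPM in any library. COX6A1 averaged 20.4 CPM per kb, while the muscle form COX6A2 reached 0.0171 CPM in its highest library. The testis forms COX6B2, COX7B2 and COX8C stayed at or under 0.721, 0.0215 and 0.139 CPM, against 183, 36.7 and 134 CPM per kb for COX6B1, COX7B and COX8A. COX7A2 was at 43.1 CPM per kb, COX7A2L, which joins complexes III and IV into a supercomplex, at 10.3, and the muscle form COX7A1 at 0.379. The 3 genes of the proton-carrying c subunit of ATP synthase were all expressed, ATP5MC2 at 80.99, ATP5MC1 at 53.1 and ATP5MC3 at 39.6 CPM per kb.

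Some member counts are uncertain because exons are shared with another gene. The readthrough genes ATP5MF-PTCD1 and NDUFC2-KCTD14 share 88.3% and 100% of their exon bases with neighbours on the same strand, and NDUFC2-KCTD14 had 0 counts in all 24 libraries, which allows up to 0.0948 CPM at 3 counts in the smallest library. NDUFA7 and NDUFB8 were low for subunits of complex I, at most 0.789 and 12.1 CPM, and share 32.3% and 33.8% of their exon bases with a same-strand gene. COX8A shares 34.5% with a same-strand gene. For ATP5ME, 61.6% of the exon bases also belong to MYL5 on the other strand, for NDUFS7 49.1% and for NDUFA1 44.5% lie under other-strand genes, and whether the counting used strand is not given in the sources used here. Many of these genes also have near-identical processed pseudogenes, and how reads shared with them were counted is not given either.

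Many promoters of these genes are known to bind NRF1, GABP (an ETS factor), YY1 or oestrogen-related receptors. RefSeq promoters (GRCh38.p14, from 250 bases before to 50 after the start) were matched for 80 of the 97 members, and exact motif letters were searched on both strands. GCGCATGC (NRF1) occurred in 16 of the 80 (20%), against 3.68% of 27305 genes. CCGGAAG (ETS) occurred in 23 (28.8%), against 12.16%, AAGATGGC (YY1) in 13 (16.2%), against 3.52%, and AAGGTCA (oestrogen-related receptors) in 11 (13.8%), against 4.8%. At least 1 of the 4 was present in 42 members (52.5%) and in 21.67% of all genes. The 27305 genes include genes not expressed in HEL cells. Promoters of genes as abundant as the members were not compared, so the higher shares are not shown to be particular to respiratory chain genes. The promoters below are shown as examples of members that hold 2 or more of the motifs, with the bases that end 1 base before the start and motif matches on either strand in capitals. The first 4 genes were higher with pacritinib at 4 h and SDHB, the iron-sulphur subunit of complex II, was not called there. Its full window matches all 4 motifs, of which the printed stretch holds 3. They lie at chr2:97645912-97646061 (plus strand), chr12:120437883-120438112 (plus), chr3:120596166-120596335 (plus), chr18:46098297-46098446 (minus) and chr1:17054033-17054262 (minus).
COX5B: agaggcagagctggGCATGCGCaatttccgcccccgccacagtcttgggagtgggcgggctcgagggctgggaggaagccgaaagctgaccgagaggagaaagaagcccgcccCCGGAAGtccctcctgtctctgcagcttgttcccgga
COX6A1: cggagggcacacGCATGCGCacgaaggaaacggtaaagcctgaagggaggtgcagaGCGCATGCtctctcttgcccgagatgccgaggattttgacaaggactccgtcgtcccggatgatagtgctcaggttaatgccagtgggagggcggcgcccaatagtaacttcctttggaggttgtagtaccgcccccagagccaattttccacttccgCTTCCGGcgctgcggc
NDUFB4: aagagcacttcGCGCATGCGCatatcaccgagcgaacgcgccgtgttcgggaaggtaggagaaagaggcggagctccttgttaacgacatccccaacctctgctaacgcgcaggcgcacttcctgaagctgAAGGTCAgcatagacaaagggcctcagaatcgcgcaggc
ATP5F1A: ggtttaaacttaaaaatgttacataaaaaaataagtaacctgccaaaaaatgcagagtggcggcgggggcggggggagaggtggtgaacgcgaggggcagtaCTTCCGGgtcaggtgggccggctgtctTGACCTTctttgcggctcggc
SDHB: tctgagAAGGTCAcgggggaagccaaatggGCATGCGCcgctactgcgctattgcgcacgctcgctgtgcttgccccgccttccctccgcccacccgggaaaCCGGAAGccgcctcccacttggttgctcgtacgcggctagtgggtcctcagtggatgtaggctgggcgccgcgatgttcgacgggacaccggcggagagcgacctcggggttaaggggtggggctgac
In COX5B the capitals are an NRF1 match at -136 to -129 and an ETS match at -37 to -31, counted from the start. COX6A1 holds 2 NRF1 matches and an ETS match at -16 to -10, and NDUFB4 holds 2 overlapping NRF1 matches in 1 run and an oestrogen-related receptor match at -39 to -33. In ATP5F1A an ETS and an oestrogen-related receptor match lie at -48 to -42 and -21 to -15, both on the other strand. Letters that match a motif are a description of the sequence and show no binding.

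The summed level of the members was highest with pacritinib at 4 h. The 97 members summed to 11692.1 and 11730.3 CPM in the pacritinib libraries and to 10322.8 and 10358.7 CPM in the DMSO libraries of 4 h, a mean 13.3% higher. No other library reached the pacritinib values, and the next highest was 11113.3 CPM in momelotinib replicate 1 of 4 h, whose partner was at 10377.2 CPM. Part of the rise comes from the TMM factors in these CPM, 0.961 and 0.958 with pacritinib against 1.002 and 1.010 with DMSO at 4 h. As a share of total counts, the members were at 1.123% and 1.123% with pacritinib against 1.034% and 1.046% with DMSO. The rise in the sum was 13.7% for accessory subunits of complex I and was smaller for complex II, 470.9 and 467.7 CPM against 442.4 and 444.1 (5.9%), and for assembly factors, 280.5 and 281.1 CPM against 275.5 and 274.2 (2.2%). After 48 h the sum with pacritinib, 10632.8 and 10036.0 CPM, was 2.6% above DMSO, at 10183.9 and 9956.7 CPM, and the libraries overlapped. Between the 2 libraries of a group the member sum differed by 0.2% to 7.1%, and in 10 of 12 groups the library with more member RNA also had more RNA of cytosolic ribosomal proteins. The sum of the ribosomal protein genes was 16.5% higher with pacritinib at 4 h, and its part in the members' rise was not tested.

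**Figure D1:**
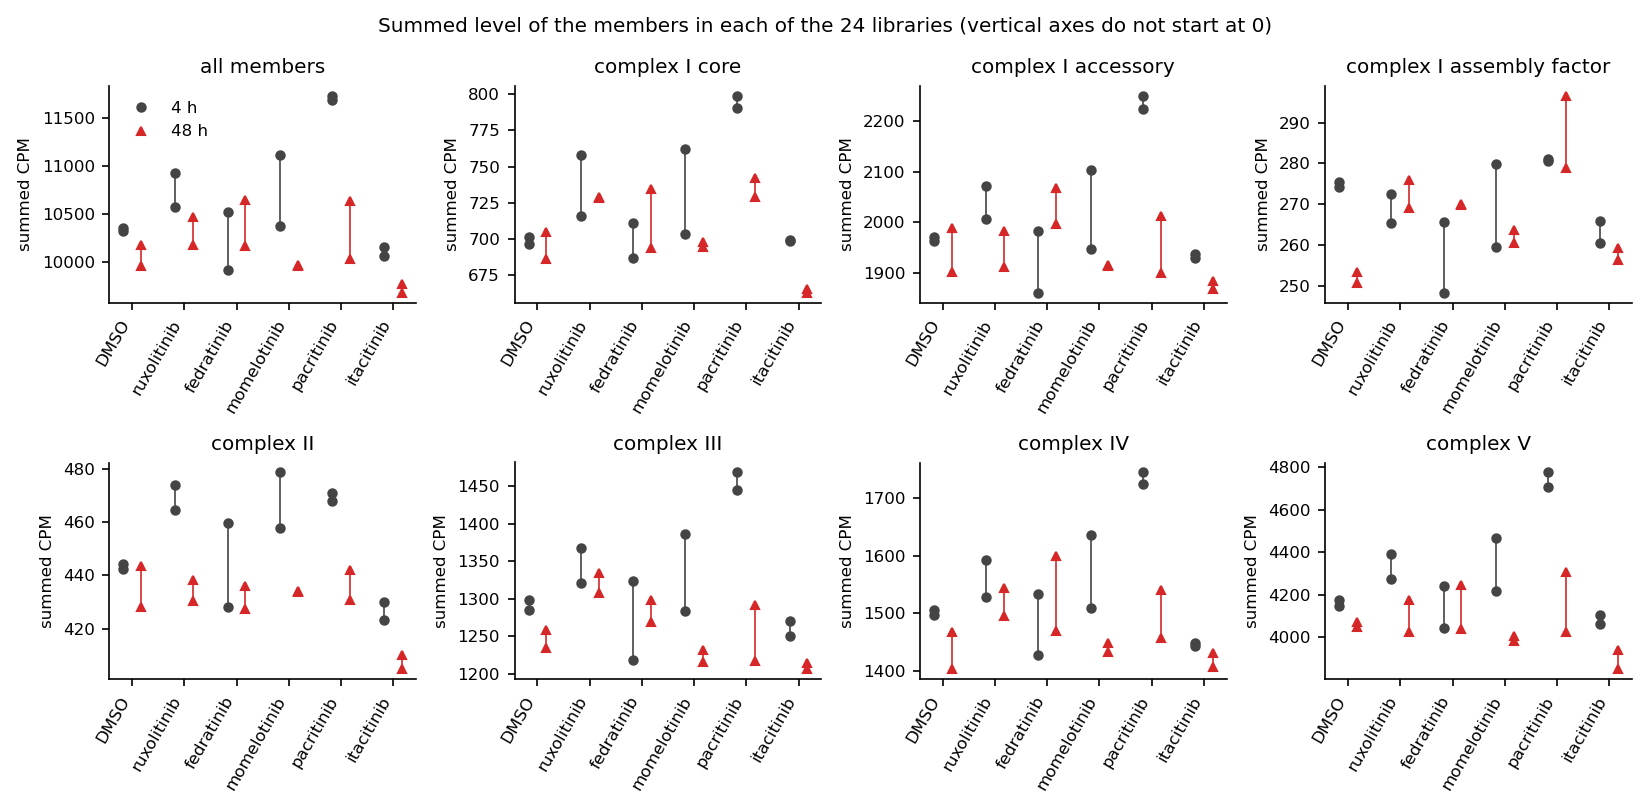
Summed CPM of the members, in all and by role, in each of the 24 libraries (black circles, 4 h; red triangles, 48 h; a line joins the 2 libraries of a group; vertical axes do not start at 0). With pacritinib at 4 h all members summed to 11692.1 and 11730.3 CPM, above every other library.

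With pacritinib at 4 h, 50 of the 92 tested members were higher and 1 was lower than with DMSO at an adjusted p under 0.05 (edgeR, Benjamini-Hochberg over all tested genes). Over all tested genes 13.1% were higher and 17.4% lower. The members' median log2 fold change was 0.17, against 0.01 over all tested genes, and 84 of 92 were positive. Members are more abundant than most genes, so the same count was taken over genes averaging at least 10 CPM. There 59.5% of 84 members were higher and 1.19% lower, against 16.7% and 24.6% of 8995 genes. The changes were small. The 50 higher members rose by 0.14 to 0.42 on the log2 scale, 1.104-fold to 1.338-fold, and 0 passed 2-fold. In 75 members both pacritinib libraries were above both DMSO libraries, which held for 32.1% of all tested genes. For alternative runs, here and below, counts over all tested genes are not given. A fall in member calls in such a run cannot be read as particular to the members. Leaving out pacritinib replicate 2 brought the calls from 51 to 30, and 22 of the 51 remained in every alternative run.

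**Figure D2:**
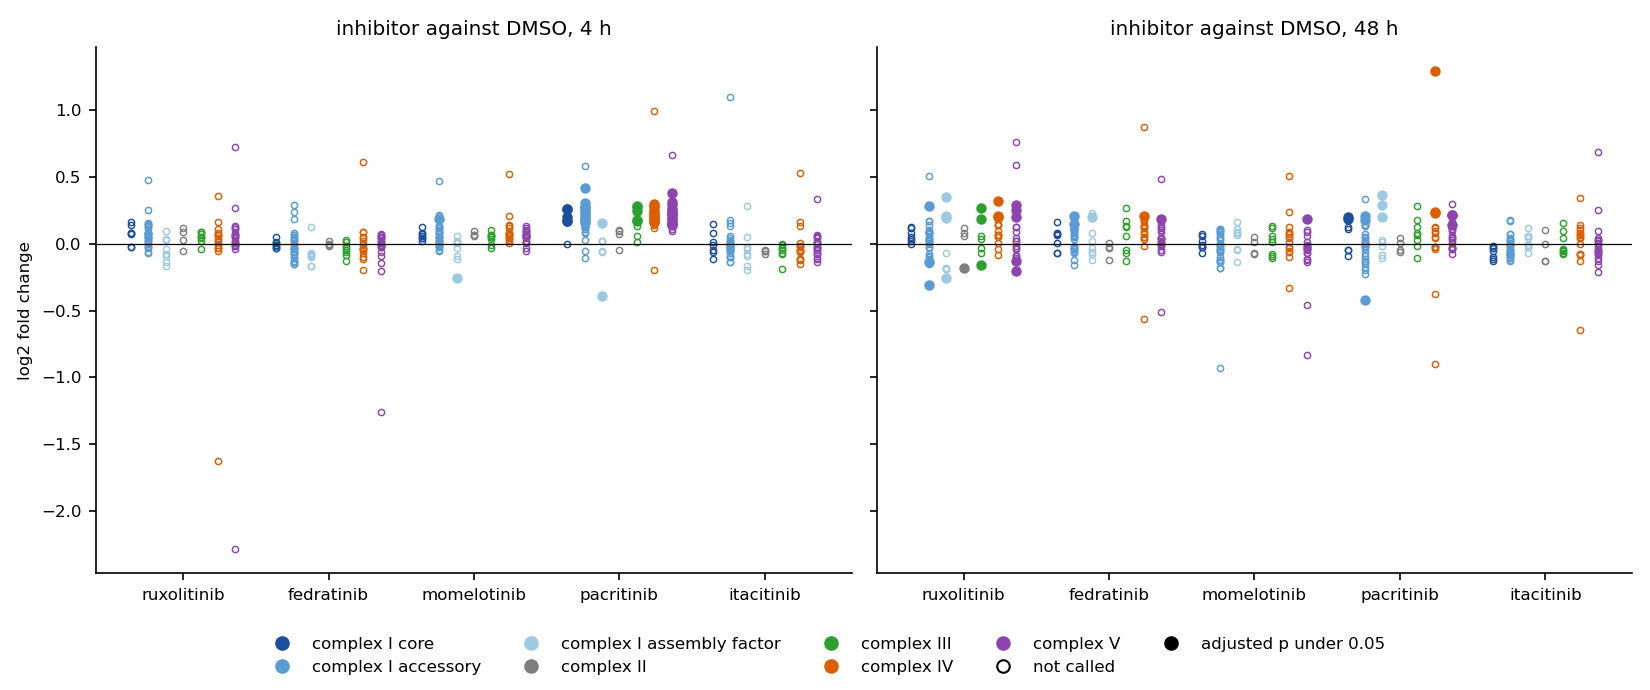
Log2 fold change of each tested member against DMSO of the same time, by inhibitor and role (filled, adjusted p under 0.05; open, not called). Pacritinib at 4 h holds 50 members called higher and 1 called lower, and the widest open points, such as ATP5MF-PTCD1 with ruxolitinib at 4 h (-2.29), are members under 5 CPM.

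In complex I, 5 of 7 core subunits, 12 of 30 tested accessory subunits and 1 of 8 assembly factors rose with pacritinib at 4 h. NDUFB5 (chr3:179604690-179627647 in GRCh38, GENCODE 29), an accessory subunit of the membrane arm, was at 63.5 and 69.5 CPM with pacritinib and at 49.3 and 50.04 with DMSO. Its rise of 0.42 ± 0.06 (log2, SE; adjusted p = 1.04e-06) was the largest among called members. NDUFB6 (chr9:32552999-32573184), of the same arm, was at 90.9 and 95.8 CPM against 72.8 and 78.3 and rose by 0.30 ± 0.05 (adjusted p = 4.07e-05). In both genes the pacritinib libraries lay above all other 4 h libraries. NDUFB4, whose promoter is printed above, was at 105 and 105 CPM against 92.2 and 94.2 (0.17 ± 0.06, adjusted p = 0.0283). NDUFV1, which binds NADH and the flavin where electrons enter, rose by 0.26 ± 0.05 and NDUFS1, which carries iron-sulphur clusters, by 0.20 ± 0.05. NDUFS7 rose by 0.26 ± 0.08, while NDUFS8 (0.16 ± 0.06, adjusted p = 0.0501) was not called. The 1 member that fell was NDUFAF1 (chr15:41387349-41402519), an assembly factor for the membrane arm. It was at 14.9 and 14.3 CPM with pacritinib and 20.03 and 18.4 with DMSO, and fell by 0.39 ± 0.08 (adjusted p = 3.57e-04). With the other 4 inhibitors at 4 h it was between 17.0 and 18.8 CPM.

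None of the 4 complex II genes was called with pacritinib at 4 h. SDHA, the flavin subunit, was at 248 and 243 CPM against 230.5 and 230.1, and SDHB at 134 and 136 against 125 and 132. The membrane anchors were at 68.1 and 68.5 against 65.3 and 61.8 CPM for SDHC and 20.3 and 20.3 against 21.6 and 20.4 CPM for SDHD. The pacritinib libraries were above both DMSO libraries for SDHA, SDHB and SDHC and below both for SDHD. Log2 fold changes ran from -0.04 to 0.10, and the 95% intervals ended at 0.14 for SDHD, 0.18 for SDHB, 0.19 for SDHA and 0.20 for SDHC. The median over all 92 members was 0.17, and complex II was not tested against the other complexes.

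In complex III 5 of 8 genes rose with pacritinib at 4 h. UQCRH (chr1:46303631-46316776), the hinge protein that holds cytochrome c1, was at 451 and 464 CPM against 369 and 386 and rose by 0.28 ± 0.05 (adjusted p = 3.30e-05). UQCRQ rose by 0.29 ± 0.07, UQCR10 by 0.24 ± 0.07, UQCRC2, a core protein, by 0.18 ± 0.05 and UQCRB by 0.17 ± 0.05. UQCRC1, the other core protein (0.06 ± 0.05), and UQCRFS1, the Rieske iron-sulphur protein (0.02 ± 0.05), were not called. CYC1, outside the rule, was not called either (0.03 ± 0.06, adjusted p = 0.771).

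In complex IV 11 of 15 tested genes rose with pacritinib at 4 h. COX5B (chr2:97646040-97648383), whose promoter is printed above, was at 211 and 215 CPM against 176 and 171 and rose by 0.30 ± 0.06 (adjusted p = 4.80e-04). COX7A2L was at 69.5 and 71.8 CPM against 59.3 and 57.7 and rose by 0.27 ± 0.05. COX6A1, also with its promoter above, was at 32.7 and 30.5 CPM against 25.98 and 27.2 (0.25 ± 0.08). COX7B rose by 0.28 ± 0.06, COX6C by 0.24 ± 0.06, NDUFA4 by 0.21 ± 0.06 and COX4I1 and COX5A, which flank the catalytic core early in assembly, by 0.16 ± 0.05 and 0.16 ± 0.05. COX6B1, at 191 and 185 CPM against 173 and 174, was not called (0.11 ± 0.06, adjusted p = 0.143).

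In complex V 16 of 20 genes rose with pacritinib at 4 h. ATP5F1E (chr20:59025467-59032382), the epsilon subunit of the central stalk, was at 245 and 253 CPM against 201 and 205 and rose by 0.29 ± 0.05 (adjusted p = 9.44e-05). ATP5MG, a subunit of the dimer interface, was at 282 and 284 CPM against 229 and 227 and rose by 0.31 ± 0.07. ATP5ME was at 13.04 and 13.1 CPM against 9.605 and 10.5 and rose by 0.38 ± 0.11, and MYL5, which overlaps it on the other strand, rose by 0.37 ± 0.12. The abundant catalytic subunits had smaller fold changes. ATP5F1A was at 787 and 799 CPM against 683 and 675 (0.22 ± 0.05) and ATP5F1B at 1184 and 1206 against 1069 and 1096 (0.14 ± 0.04). Of the c subunit genes, ATP5MC2 and ATP5MC3 rose by 0.16 ± 0.05 and 0.15 ± 0.05, and ATP5MC1 was not called (0.09 ± 0.06). ATP5IF1, which inhibits ATP hydrolysis by the enzyme when the gradient fails, rose by 0.15 ± 0.05. Calls of NDUFB5, NDUFB6, NDUFV1, NDUFAF1, UQCRH, COX5B, COX7A2L, COX7B, COX6C, ATP5F1A, ATP5F1E and ATP5MG were among the 22 that remained in every alternative, and those of NDUFS1, NDUFS7, UQCRQ, UQCR10, UQCRC2, UQCRB, NDUFA4, NDUFB4, COX6A1, COX4I1, COX5A, ATP5ME, ATP5F1B, ATP5MC2, ATP5MC3 and ATP5IF1 were each lost in at least 1.

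**Figure D3:**
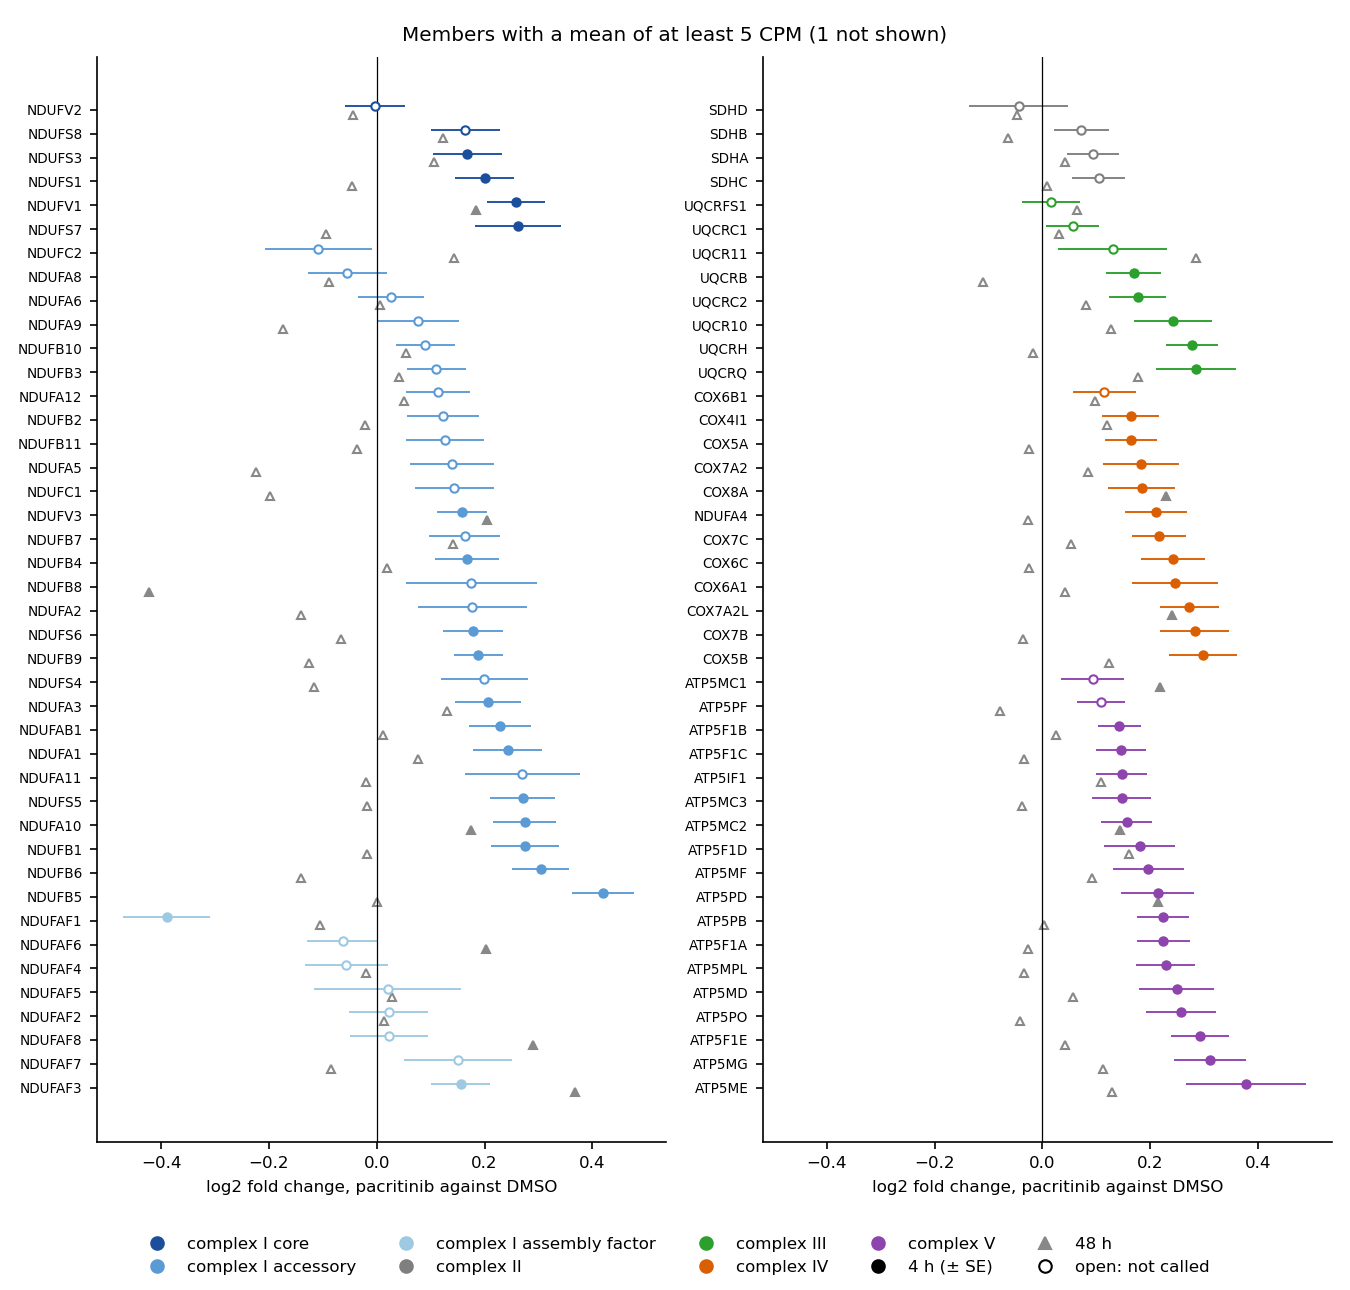
Log2 fold change of pacritinib against DMSO for members averaging at least 5 CPM (1 not shown), by role (circles with SE, 4 h; triangles, 48 h; filled, adjusted p under 0.05). NDUFB5 is the furthest right at 4 h (0.42) and NDUFAF1 the furthest left (-0.39), and most 48 h triangles lie nearer to 0.

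The promoter motifs were counted again among members that rose and members not called with pacritinib at 4 h. Of 40 matched members that rose, 60% held at least 1 of the 4 motifs, against 51.4% of 35 that were not called. ETS and oestrogen-related receptor letters were in 35% and 20% of those that rose and in 25.7% and 8.6% of those not called, NRF1 letters in 20% and 22.9%, and YY1 letters in 10% and 25.7%. These shares rest on few genes and were not tested.

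The other 4 inhibitors left nearly all members uncalled at 4 h. With ruxolitinib, at which 3.42% of tested genes were higher and 5.04% lower, 0 members were called by edgeR, 12 had an unadjusted p under 0.05, and DESeq2 called 2. Their median was 0.05 and 67 of 92 were positive. Here and below, no share over all tested genes is given for unadjusted p-values, DESeq2 calls or positive signs. Such counts are therefore no result about the members. With fedratinib (0.616% higher and 0.97% lower) and itacitinib (0.672% and 0.106%) edgeR also called 0 members, 7 and 8 had an unadjusted p under 0.05, DESeq2 called 0 and 0, and the medians were -0.02 and -0.03. With momelotinib (2.21% and 3.79%), NDUFB5 was at 56.99 and 56.3 CPM against 49.3 and 50.04 and rose by 0.19 ± 0.06 (adjusted p = 0.0469). NDUFAF2, a complex I assembly factor, was at 22.3 and 20.2 CPM against 24.6 and 25.9 and fell by 0.25 ± 0.07 (adjusted p = 0.0354). Both calls were lost without either DMSO library or without momelotinib replicate 2, and that of NDUFB5 also without momelotinib replicate 1. All inhibitors of a time were compared with the same 2 DMSO libraries, so their differences from DMSO are not independent of each other.

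With ruxolitinib at 48 h, 12 members were higher and 7 lower, against 12.5% and 13.2% of tested genes. The share of members higher was close to that of all genes. Among genes averaging at least 10 CPM, 14.3% of 84 members were higher and 8.33% lower, against 18.1% and 18.2% of 8995 genes. The members' median was 0.05. The members that rose most were NDUFAF3, NDUFA4, ATP5F1E, NDUFC2, UQCR10 and ATP5IF1. NDUFAF3 (chr3:49020459-49023495), an early assembly factor of complex I, was at 97.9 and 105 CPM against 78.1 and 81.2 and rose by 0.35 ± 0.06 (adjusted p = 8.84e-06). DALRD3, which overlaps 21.7% of its exon bases on the other strand, was not called here (0.13 ± 0.12) or with pacritinib at 48 h (0.31 ± 0.12). NDUFA4 (chr7:10931951-10940256) was at 69.98 and 67.7 CPM against 55.3 and 55.04 and rose by 0.32 ± 0.06 (adjusted p = 6.20e-05), and both values were above all other 48 h libraries. ATP5IF1 was at 182 and 173 CPM against 149.7 and 148 (0.25 ± 0.05). ATP5F1E was at 243 and 236 CPM against 195 and 196 (0.29 ± 0.05). TUBB1, a megakaryocyte tubulin whose exons overlap 23.2% of the exon bases of ATP5F1E on the other strand, rose by 1.60 ± 0.09 in the same comparison, and its part in the ATP5F1E count was not tested. NDUFC2, at 15.3 and 14.7 CPM against 13.4 and 11.3, and UQCR10, at 104 and 99.8 against 91.6 and 77.4, rose by 0.29 ± 0.10 and 0.27 ± 0.07.

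Among the 7 members lower with ruxolitinib at 48 h, NDUFA9 (chr12:4649095-4694317), which steadies the junction of the 2 arms of complex I, changed most. It was at 18.5 and 17.5 CPM against 21.7 and 22.9 and fell by 0.31 ± 0.08 (adjusted p = 0.00358). NDUFAF4, an assembly factor, was at 29.6 and 26.6 CPM against 33.3 and 33.9 and fell by 0.26 ± 0.08. SDHB (chr1:17018722-17054170) was at 116 and 112 CPM against 129 and 130.2 and fell by 0.18 ± 0.05 (adjusted p = 0.00803), while SDHA (0.06 ± 0.05), SDHC (0.08 ± 0.05) and SDHD (0.12 ± 0.09) were not called. UQCRFS1 fell by 0.16 ± 0.05, ATP5MD, a small subunit of the membrane part, by 0.20 ± 0.07, NDUFB9 by 0.14 ± 0.05 and ATP5F1B by 0.13 ± 0.04. ATP5F1B, ATP5MD and NDUFB9 were the 3 members called in opposite directions in different comparisons, since all had risen with pacritinib at 4 h. The 19 calls fell to 5 without DMSO replicate 2, to 11 without ruxolitinib replicate 1 and to 9 without ruxolitinib replicate 2. NDUFAF3, NDUFA4, ATP5F1E and ATP5IF1 remained called in every alternative.

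**Figure D4:**
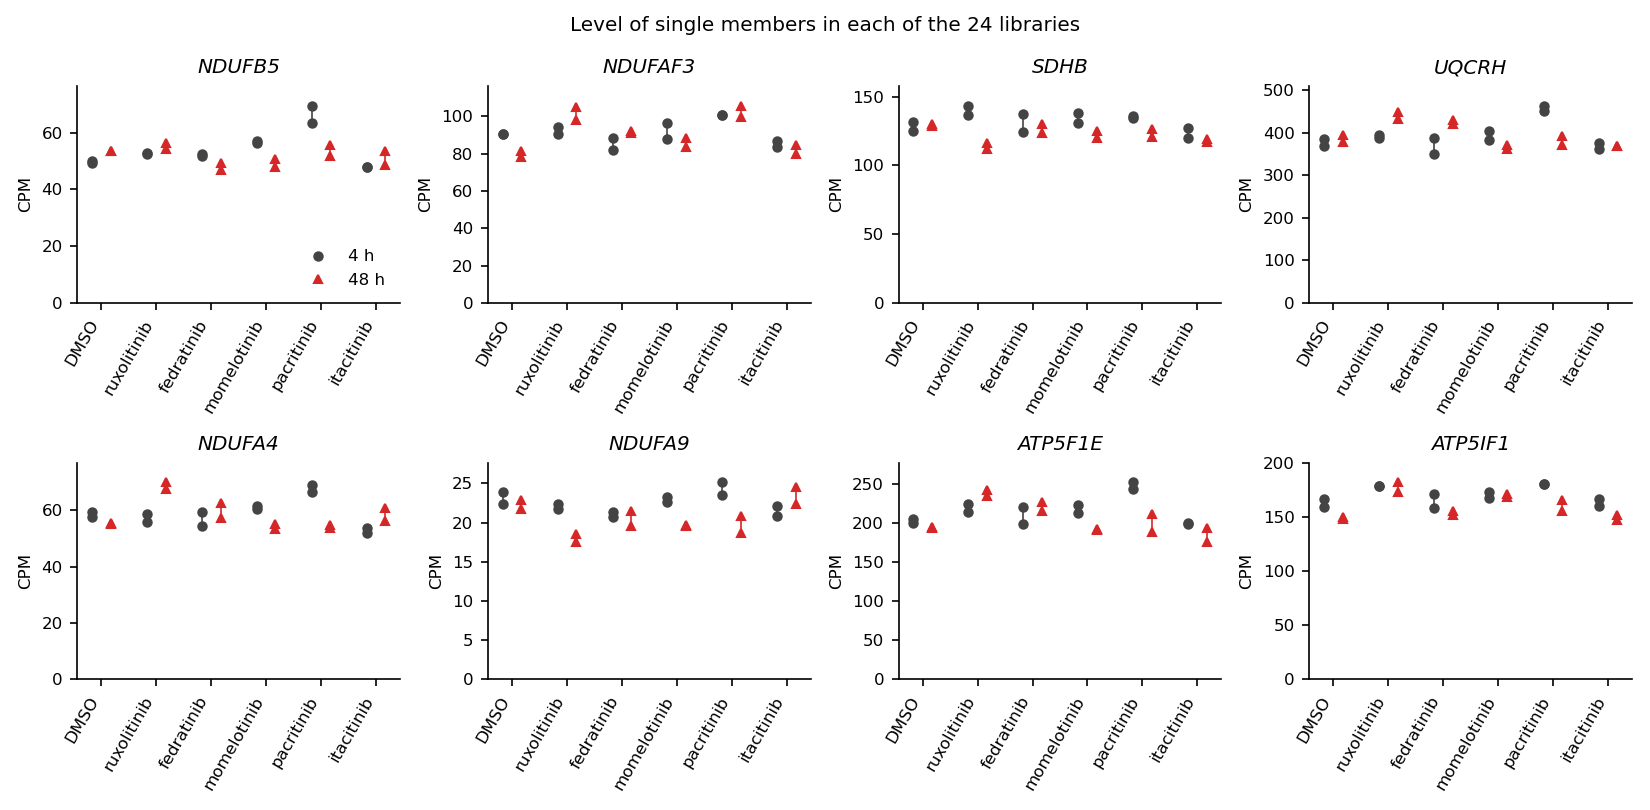
CPM of 8 members in each of the 24 libraries (black circles, 4 h; red triangles, 48 h; a line joins the 2 libraries of a group). NDUFB5 and UQCRH are highest with pacritinib at 4 h, among 48 h libraries NDUFA4 is highest with ruxolitinib, and NDUFA9 is lowest there.

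With pacritinib at 48 h, 13 members were higher and 1 was lower, against 8.26% and 10.1% of tested genes, and the median was 0.03. Among genes averaging at least 10 CPM, 14.3% of 84 members were higher and 1.19% lower, against 11.3% and 15.3% of 8995 genes. NDUFAF3 was at 106 and 99.9 CPM against 78.1 and 81.2 and rose by 0.37 ± 0.06 (adjusted p = 9.68e-06). Among the other assembly factors 2 rose, NDUFAF8, at 56.3 and 54.6 CPM against 45.6 and 45.1 (0.29 ± 0.07), and NDUFAF6 (0.20 ± 0.07). COX7A2L was at 61.03 and 60.7 CPM against 51.7 and 51.4 and rose by 0.24 ± 0.06, COX8A rose by 0.23 ± 0.06, and ATP5MC1, which had not been called at 4 h, was at 161 and 149.7 against 136 and 131 (0.22 ± 0.06). Of the complex I core, NDUFV1 rose by 0.18 ± 0.05. NDUFA4L2, a gene induced by hypoxia elsewhere, was at only 1.76 and 1.45 CPM against 0.3798 and 0.918, and its fold change of 1.29 ± 0.40 rests on these low counts. NDUFB8 (chr10:100523740-100530000) fell by 0.42 ± 0.13, from 9.74 and 10.99 CPM with DMSO to 6.37 and 8.99, and HIF1AN, which overlaps its exons on the other strand, rose by 0.22 ± 0.05. In all, 9 members (9.78%) were higher with pacritinib at both times, against 2.89% of all tested genes, among them NDUFAF3, COX7A2L, COX8A, NDUFV1, ATP5MC2 and ATP5PD. For genes averaging at least 10 CPM the shares were 10.7% of members and 4.32% of genes. At 4 h alone 50 of 92 members were higher, against 13.1% of tested genes, which by itself raises the share of members called at both times. Overlap beyond the counts at each time was not tested, so these shares do not show that members stayed higher more than other genes. The 14 calls fell to 6 without DMSO replicate 2 and to 4 without pacritinib replicate 1, and COX7A2L and NDUFAF3 remained in every alternative.

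With fedratinib at 48 h 5 members were higher and 0 lower, against 3.66% and 4.04% of tested genes. NDUFAF3 was at 91.97 and 91.3 CPM against 78.1 and 81.2 (0.20 ± 0.06, adjusted p = 0.019) and COX6B1 at 193 and 173 against 163 and 154 (0.21 ± 0.06, adjusted p = 0.0241). NDUFA3 (0.21 ± 0.06), ATP5F1E (0.18 ± 0.05) and NDUFV3 (0.15 ± 0.05) were the others. None of the 5 was called without DMSO replicate 2 or without fedratinib replicate 1. With momelotinib at 48 h (0.995% of tested genes higher and 0.946% lower) 1 member rose and 0 fell. This was ATP5IF1, at 169 and 171 CPM against 149.7 and 148 (0.19 ± 0.05, adjusted p = 0.0314), and it was not called when any 1 of the 4 libraries was left out. With itacitinib at 48 h (0.0871% and 0.355%) edgeR called 0 members, 9 had an unadjusted p under 0.05 and DESeq2 called 0.

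Between DMSO at 48 h and DMSO at 4 h, 3 of 92 members were called, all lower at 48 h. Over all tested genes 4.04% were higher and 4.12% lower at 48 h. The share of members lower was close to that of all genes. NDUFAF8 went from 55.5 and 54.1 CPM at 4 h to 45.6 and 45.1 at 48 h (a fall of 0.27 ± 0.07), NDUFAF3 from 90.6 and 90.4 to 78.1 and 81.2 (0.18 ± 0.06) and COX7A2L from 59.3 and 57.7 to 51.7 and 51.4 (0.18 ± 0.06). These 3 members are also among those called higher against DMSO at 48 h. The part of the lower DMSO libraries in those calls was not tested. NDUFAF3 with pacritinib was at 101 and 101 CPM at 4 h and 106 and 99.9 at 48 h. The summed level of the 8 assembly factors was 275.5 and 274.2 CPM in DMSO at 4 h and 250.7 and 253.4 CPM at 48 h. At 48 h it was above DMSO by 14.1% with pacritinib, 8.1% with ruxolitinib, 7.1% with fedratinib, 4.0% with momelotinib and 2.2% with itacitinib, with no overlap between libraries in any of the 5. The count for DMSO fell to 0 without DMSO replicate 1 or 2 of 4 h or replicate 2 of 48 h, and to 1 without replicate 1 of 48 h.

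The change of the pacritinib effect between the times was tested as an interaction. For 22 members the log2 difference from DMSO was lower at 48 h than at 4 h and for 1, NDUFAF6, it was higher, against 7.58% and 10.3% of tested genes in those directions. The largest was NDUFB8 (-0.60 ± 0.18), at 10.2 and 10.9 CPM with pacritinib and 9.21 and 9.48 with DMSO at 4 h, whose exon overlaps are given above. For NDUFB6 the interaction was -0.44 ± 0.08 (adjusted p = 7.59e-05), with 74.8 and 71.05 CPM in the pacritinib libraries of 48 h against 79.5 and 81.2 with DMSO. For NDUFB5 it was -0.42 ± 0.08 (adjusted p = 4.43e-04), with 55.5 and 51.7 CPM against 53.4 and 53.6. UQCRH (-0.30 ± 0.07), NDUFB9 (-0.31 ± 0.07), COX7B (-0.32 ± 0.09), ATP5F1A (-0.25 ± 0.07) and ATP5F1E (-0.25 ± 0.08) were also called. By role the count was 9 of 30 accessory and 2 of 7 core subunits of complex I, 2 of 8 in complex III, 3 of 15 in complex IV and 6 of 20 in complex V. The 23 calls fell to 12 without DMSO replicate 2 of 4 h, 11 without pacritinib replicate 2 of 4 h, 13 without DMSO replicate 1 of 48 h and 8 without pacritinib replicate 2 of 48 h. NDUFB5, NDUFB6, NDUFB9 and UQCRH remained in every alternative.

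For the other inhibitors fewer members passed the test of a change between the times. For ruxolitinib 2 members had a higher and 2 a lower difference at 48 h, against 4.32% and 4.4% of tested genes. These were NDUFA4 (0.35 ± 0.08), NDUFAF3 (0.32 ± 0.08), SDHB (-0.30 ± 0.07) and NDUFB9 (-0.22 ± 0.07). SDHB with ruxolitinib was at 143 and 136 CPM at 4 h, above DMSO at 125 and 132, and below DMSO at 48 h, and NDUFA4 and SDHB remained in every alternative. Without ruxolitinib replicate 2 of 48 h the count was 2. For fedratinib 4 were higher and 0 lower (2% and 2.12%), NDUFAF8, NDUFB2, NDUFA3 and NDUFAF3, by 0.29 to 0.39. This count was 0 without DMSO replicate 1 or 2 of 4 h, fedratinib replicate 2 of 4 h, DMSO replicate 2 of 48 h or fedratinib replicate 1 of 48 h, and 7 without fedratinib replicate 2 of 48 h. For momelotinib 0 were higher and 1 lower (1.57% and 0.759%), NDUFB5 (-0.31 ± 0.08), whose call was lost without any 1 of the 8 libraries. For itacitinib (0% and 0.0124%) edgeR called 0, 10 had an unadjusted p under 0.05 and DESeq2 called 0.

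Across the 10 comparisons of an inhibitor with DMSO, 63 of the 92 members (68.5%) were called at least once and 29 in none, against 53.1% of all tested genes called at least once. Among genes averaging at least 10 CPM the shares were 73.8% of members and 71.4% of genes. NDUFAF3 was called in 4, always higher, and ATP5F1E, ATP5IF1, ATP5PD, COX8A and NDUFV3 in 3 each, also always higher. These counts share DMSO libraries and are a description.

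Other genes of mitochondrial function were counted from lists. Over all tested genes 13.1% were higher and 17.4% lower with pacritinib at 4 h. With pacritinib at 4 h, 12 of 44 further assembly factors were higher and 3 lower, with a median of 0.04. SDHAF4, which helps mature SDHA, rose by 0.71 ± 0.18, SURF1, needed for complex IV assembly, by 0.40 ± 0.09 and COA5 by 0.41 ± 0.09, while TMEM70, needed for ATP synthase assembly, fell by 0.53 ± 0.07. Of 78 mitochondrial ribosomal proteins 10 rose and 14 fell, shares close to those of all tested genes. Of 25 genes of the citric acid cycle and pyruvate dehydrogenase 2 rose and 1 fell. Of 22 regulators of mitochondrial gene expression 1 rose, YY1 (0.22 ± 0.05), and 5 fell, with NRF1 at -0.49 ± 0.07, TFB1M at -0.37 ± 0.14, TEFM at -0.36 ± 0.11 and TFAM, which packages mitochondrial DNA, at -0.18 ± 0.06. Of 84 cytosolic ribosomal proteins 71 rose and 1 fell, with a median of 0.21 beside 0.17 for the members. Of 23 import genes 5 rose and 2 fell, of 17 other subunits and electron carriers 0 were called, and of 14 hypoxia-inducible genes 1 rose and 7 fell, led by EGLN3 (-1.50 ± 0.14). The 13 mitochondrially encoded subunits, the partners of the members in complexes I, III, IV and V, were not called with pacritinib at 4 h (median 0.10), and all 13 were higher with pacritinib at 48 h (median 0.60). Their sum was 24779.8 and 17004.9 CPM in the DMSO libraries of 4 h, a wider gap than the members showed in any group.

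With ruxolitinib at 48 h, 12.5% of all tested genes were higher and 13.2% lower. All 13 mitochondrially encoded subunits were higher (median 0.41). Of 84 cytosolic ribosomal proteins 31 were higher and 2 lower. Of 78 mitochondrial ribosomal proteins 4 were higher and 13 lower, and of 23 genes of mitochondrial protein import 0 were higher and 5 lower, led by TOMM40L (-0.36 ± 0.07) and TIMM17A (-0.30 ± 0.05). Among regulators 2 were higher and 8 lower, with PPARGC1B, a coactivator of mitochondrial biogenesis, falling by 0.64 ± 0.07, POLRMT, the mitochondrial RNA polymerase, by 0.28 ± 0.05 and TFB2M by 0.28 ± 0.08. CYCS, which encodes cytochrome c, fell by 0.26 ± 0.05. MPC2 and MPC1, the mitochondrial pyruvate carrier, rose by 0.63 ± 0.09 and 0.27 ± 0.10. With fedratinib at 48 h, 10 of the 13 mitochondrially encoded subunits were higher (median 0.50) beside the 5 members. With itacitinib at 48 h their median was as large, 0.50, but 0 were called, and the smallest adjusted p was 0.0514.

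**Figure D5:**
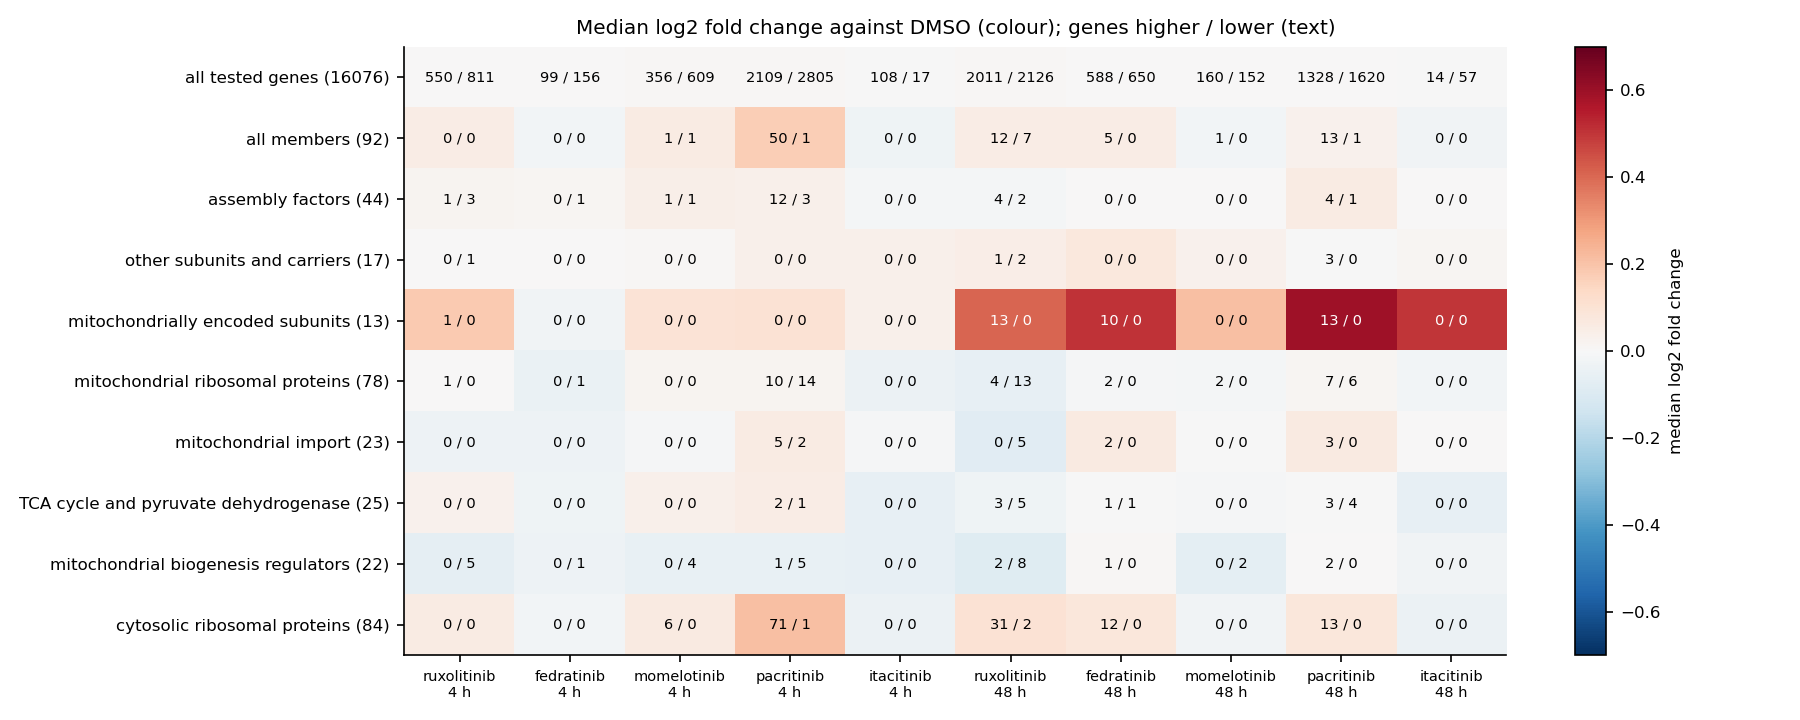
Median log2 fold change against DMSO (colour) and genes higher / lower at an adjusted p under 0.05 (text) for all tested genes, the members and the other lists, by inhibitor and time. The members (50 / 1) and the cytosolic ribosomal proteins (71 / 1) stand out with pacritinib at 4 h, and the mitochondrially encoded subunits at 48 h.

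Inhibitors of related structure were compared directly at 500 nM, in 4 pairs at each time and 8 comparisons in all. P-values were adjusted within each comparison over all tested genes. Fedratinib, momelotinib and pacritinib all contain an anilino-pyrimidine, and pacritinib is in addition closed into a macrocycle. At 4 h, 58 members were lower with fedratinib than with pacritinib and 1, NDUFAF1, was higher, against 12.1% and 16.6% of tested genes. UQCRH was at 388 and 351 CPM with fedratinib and 451 and 464 with pacritinib, a difference of -0.31 ± 0.05 (adjusted p = 9.40e-06). NDUFS5 differed by -0.33 ± 0.06 and NDUFB5 by -0.35 ± 0.06. In the SDH genes no difference was called, and the interval for SDHB was -0.15 to 0.06. The 59 calls fell to 28 without fedratinib replicate 2 and to 38 without pacritinib replicate 2.

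Momelotinib and pacritinib at 4 h differed in 28 members, 27 lower and 1 higher with momelotinib, against 7.96% and 12.8% of tested genes. COX7A2L was at 60.8 and 56.9 CPM with momelotinib and 69.5 and 71.8 with pacritinib (-0.26 ± 0.05, adjusted p = 6.49e-04), and UQCRH differed by -0.22 ± 0.05. For ATP5F1B the difference was not called, with an interval of -0.16 to 0.00. The count fell to 8 without momelotinib replicate 2, to 14 without pacritinib replicate 1 and to 9 without pacritinib replicate 2. Between fedratinib and momelotinib at 4 h, where 1% of tested genes were higher and 0.404% lower, edgeR called 0 members, 16 had an unadjusted p under 0.05 and DESeq2 called 2. Without momelotinib replicate 2 edgeR called 9. The interval for SDHB was -0.14 to 0.06 and that for ATP5F1B -0.17 to -0.01, so differences up to these bounds lie within the intervals.

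At 48 h the same 3 inhibitors were compared again. Fedratinib against momelotinib gave 3 higher and 0 lower (2.87% and 3.81% of tested genes), UQCRH (0.21 ± 0.05), ATP5F1E (0.21 ± 0.05) and NDUFB6. Fedratinib against pacritinib gave 5 higher and 4 lower (6.48% and 5.52%), with ATP5MC1 at -0.20 ± 0.06 and UQCRH at 0.15 ± 0.05. Momelotinib against pacritinib gave 0 higher and 5 lower (4.76% and 3.31%), with NDUFAF3 at -0.26 ± 0.05 and ATP5F1D at -0.28 ± 0.07. The 3 calls of fedratinib against momelotinib became 0 without fedratinib replicate 1 or momelotinib replicate 2, 1 without momelotinib replicate 1 and 5 without fedratinib replicate 2. The 9 of fedratinib against pacritinib became 4 without fedratinib replicate 1 and 5 without any other 1 of the 4 libraries. The 5 of momelotinib against pacritinib became 2 without momelotinib replicate 1, 0 without pacritinib replicate 1 and 8 without pacritinib replicate 2.

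Ruxolitinib and itacitinib both contain a pyrrolopyrimidine. At 4 h, 4 members were higher with ruxolitinib and 0 lower, against 2.29% and 3.61% of tested genes. These were SDHB, at 143 and 136 CPM against 119.9 and 127 (0.18 ± 0.05), ATP5PF, COX6B1 and NDUFS8, and 0 or 1 of them was called without any 1 of the 4 libraries. At 48 h, 15 were higher and 3 lower with ruxolitinib, against 11.7% and 10.2% of tested genes. ATP5F1E was at 243 and 236 CPM with ruxolitinib and 176 and 194 with itacitinib (0.37 ± 0.05, adjusted p = 3.18e-06), NDUFAF3 at 97.9 and 105 and 79.8 and 84.6 (0.30 ± 0.05) and NDUFA9 at 18.5 and 17.5 and 24.5 and 22.4 (-0.38 ± 0.08). SDHA was higher by 0.18 ± 0.05, and SDHB, not called, had an interval of -0.16 to 0.05. Without ruxolitinib replicate 2 the count was 11, and 8 calls remained in every alternative, among them ATP5F1A, ATP5F1E, ATP5IF1, NDUFA9, NDUFAF3 and UQCRH.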

How the data were processed

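Total RNA sequencing of 24 HEL libraries was analysed from the gene counts deposited by the authors. Per the submitters' processing notes, bcl2fastq, STAR 2.5.1a, the GRCh38 genome and edgeR were used. For the counting program, its annotation and its strand setting the sources used here say nothing. Of 34343 entries, 130 that repeated an identifier with the same counts were dropped, which left 34213 genes. Totals ran from 32153866 to 56618281 counts per library.

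Counts were normalised by the trimmed mean of M values (TMM) and filtered for low counts in edgeR 4.0.16 (R 4.3.3), which kept 16076 genes. All 24 libraries entered the quasi-likelihood fit together, each group with its own mean, which left 12 residual degrees of freedom. Each comparison was adjusted by Benjamini-Hochberg over all tested genes, and a gene was called at an adjusted p under 0.05. Standard errors are the log2 fold change divided by the square root of its F statistic, and intervals are 95%. Levels are CPM with TMM factors, per kb of the exon union of GENCODE 29 where genes are compared. Alternatives were DESeq2 1.42.0, RLE size factors, no filter, the replicate number as a block, 1 time only, and leaving out each library.

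The members and the other gene lists were chosen with earlier results of these data known. Values of 1 member are not reported here. Values per library are given for up to 6 members per direction with the largest called change and no overlap, for recurrent members, isoform pairs, the SDH genes and the extremes of each complex, and of the other lists for up to 4 called genes. The fit was tested on simulated data for pacritinib at 4 h with 16076 genes, where it recovered 10% of 50 genes changed 1.15-fold, 32% at 1.25-fold, 66% at 1.5-fold and 74% at 2-fold, with 6 false calls among 97.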

Additional observations from a re-analysis of the deposited data

Results flagged for a closer look

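The effect of an inhibitor differed between 4 h and 48 h, by the test of the interaction itself, in 23 members for pacritinib, 4 for ruxolitinib, 4 for fedratinib and 1 for momelotinib. For pacritinib 22 of the 23 had a lower log2 difference from DMSO at 48 h. Over all tested genes, 10.3% were higher and 7.58% lower for pacritinib and 4.32% and 4.4% for ruxolitinib. These shares were 2% and 2.12% for fedratinib and 1.57% and 0.759% for momelotinib. SDHB with ruxolitinib was above both DMSO libraries at 4 h and below both at 48 h, with 143 and 136 CPM against 125 and 132 at 4 h and 116 and 112 against 129 and 130.2 at 48 h. NDUFB5 with momelotinib also changed side, at 56.99 and 56.3 CPM against 49.3 and 50.04 at 4 h and 50.5 and 48.02 against 53.4 and 53.6 at 48 h. Its interaction call was kept in none of the runs that left out a library.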

How the results depend on the processing

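No member called in the main run changed direction in an alternative run. This is no support for the calls, because the alternatives used the same counts. In comparisons of 2 groups, called members also had no overlap between libraries, so leaving 1 out could hardly reverse them. The direction of members not called was not compared between runs. Counts of called members that moved by more than 1.5 times or crossed 0 are given here, and for each the cause was not tested. Counts over all tested genes in the same runs are not given, so a change cannot be read as particular to the members. With DESeq2 the count was 2 for ruxolitinib at 4 h, 8 for fedratinib at 48 h, 2 for momelotinib at 48 h, 7 for the change of the fedratinib effect, 7 for ruxolitinib against itacitinib at 4 h, 2 and 6 for fedratinib against momelotinib at 4 h and 48 h, and 8 for momelotinib against pacritinib at 48 h. With no filter on low counts it was 2 for ruxolitinib at 4 h, 0 for momelotinib at 4 h, 9 and 0 for the changes of the fedratinib and momelotinib effects, and 1 and 5 for fedratinib against momelotinib at 4 h and 48 h. With the libraries of 1 time only it was 0 for momelotinib at 4 h, 10 for fedratinib at 48 h, 0 for ruxolitinib against itacitinib at 4 h, and 8 and 8 at 48 h for momelotinib against pacritinib and fedratinib against momelotinib.

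The correlation of same-numbered deviations over 66 pairs of groups ran from -0.15 to 0.17, with a median of 0.01 and 3 pairs over 0.1. These correlations by themselves gave no sign of pairing by replicate number, but they cannot show that the libraries were unpaired. The members' median log2 difference of replicate 1 from replicate 2 was negative only with pacritinib (-0.001) and itacitinib (-0.01) at 4 h. It was positive in all other groups and largest with momelotinib at 4 h (0.09). Whether this shift reflects pairing by replicate number was not tested. With the replicate number as a block the count was 9 for fedratinib at 48 h, 5 for DMSO over time, 7 and 8 for the changes of the ruxolitinib and fedratinib effects, and 1 and 8 for fedratinib against momelotinib at 4 h and 48 h. The block moved no other count by more than 1.5 times.

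Against DMSO at 4 h, leaving out 1 library gave 0 to 1 for ruxolitinib, 0 to 2 for momelotinib and 30 to 37 for pacritinib. Against DMSO at 48 h it gave 5 to 13 for ruxolitinib, 0 to 7 for fedratinib, 0 in each case for momelotinib and 4 to 15 for pacritinib. For changes of effect it gave 2 to 4 for ruxolitinib, 0 to 7 for fedratinib, 0 to 1 for momelotinib and 8 to 19 for pacritinib. Between inhibitors at 4 h it gave 0 to 1 for ruxolitinib against itacitinib, 0 to 9 for fedratinib against momelotinib, 28 to 58 for fedratinib against pacritinib and 8 to 37 for momelotinib against pacritinib. Between inhibitors at 48 h it gave 11 to 14 for ruxolitinib against itacitinib, 0 to 5 for fedratinib against momelotinib, 4 to 5 for fedratinib against pacritinib and 0 to 8 for momelotinib against pacritinib. For DMSO over time it gave 0 to 1.

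The simulated recovery of the smallest changes was 10%, for genes drawn from all tested genes. Members are more abundant than most genes. The simulation gave 97 calls, against 2109 genes higher and 2805 lower with pacritinib at 4 h in the data. Its recovery is therefore no measure of the power for members. With 2 libraries a group, a member not called is not shown to be unchanged. Of 51 calls with pacritinib at 4 h, 22 remained in every alternative.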
